A study of Mus musculus with 3 samples.

Results

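The insulin-like growth factor (IGF) system was examined through 10 genes in astrocytes made in culture from mouse embryonic stem cells. They were the ligand gene Igf1, the receptor genes Igf1r and Insr, the adaptor gene Irs2 and the binding protein genes Igfbp2, Igfbp3, Igfbp4, Igfbp5, Igfbp6 and Igfbp7. All 10 were measured, among 18194 genes in all, through 28 of the 34958 probe sets that the platform annotation ties to exactly 1 gene. Where a gene had several probe sets, the one with the highest mean gave the gene's value.

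The study holds 1 group of 3 samples, labelled wild type, with no strain named in the labels used here. Stem cells were passed through embryoid bodies for 4 days and selection medium for 5 to 7 days, then kept as neural precursors with FGF2 and EGF2, the labels' names. Precursors 18 passages from the embryoid bodies became astrocytes over 5 days without growth factors and with 5% fetal bovine serum. RNA was measured on Affymetrix Mouse Genome 430 2.0 arrays, which carry sets of short probes and give 1 signal per probe set. The samples differ in replicate number alone, so no genotype, dose or time can be compared. Nothing in the labels says that they came from separate cultures, so the p-values rest on sample-to-sample spread that can be purely technical. With 3 arrays the precision is limited.

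IGFs are small secreted hormones related to insulin. They act on the IGF1 receptor, a tyrosine kinase close in structure to the insulin receptor, and the adaptor proteins IRS1 and IRS2 carry the signal from both receptors to the PI3K-AKT and Ras-MAPK branches. Secreted binding proteins hold IGFs in the fluid around cells, prolong their life and keep them from or hand them to the receptor. In brain, astrocytes are a known source of IGF1 and of several binding proteins.

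Values below are log2 of the deposited signal, as mean ± SD (n = 3). Background was read from 78 chemosensory receptor genes (of the olfactory, vomeronasal, taste and trace-amine families), which were taken as silent in these cells. The limit on each array, the 95th percentile of those genes, was 3.99 on replicate 1, 4.10 on replicate 2 and 4.07 on replicate 3. A gene is called above background where limma's one-sided, one-sample test gave a Benjamini-Hochberg adjusted p under 0.05 over all 18116 genes tested. The SE given for a distance is limma's moderated standard error. It draws in part on the spread of all genes tested, so it can exceed the gene's own SD. Probe sets differ in brightness, so a level is read against the limit. Distances from the limit, and their medians over groups of genes, do not rank genes by expression.

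All 8 measured markers of the labelled cell type, astrocytes, were above background, by 5.51 to 8.58 log2 units. So were all 5 markers of neural precursors, the stage before it. Fabp7 lay 8.78, Sox2 7.36, Nes 6.40, Pax6 4.92 and Prom1 2.56 log2 units above the limit. Of the markers of other cell types, 0 of 4 pluripotency, 2 of 5 neuronal, 1 of 4 oligodendrocyte, 1 of 5 microglia and blood, 0 of 5 endothelial and 0 of 6 fibroblast, meningeal and pericyte genes were. The calls in these lists were Rbfox3, Syt1, Sox10 and Csf1r.

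Most of the 10 IGF system genes gave signal above background in these samples. The part of any precursor cells in the signals was not tested. Of the 10 genes, 9 were above background (limma, adjusted p from 3.85e-05 to 0.0317), against 58.3% of all genes tested. Igf1r, Insr and the binding protein genes Igfbp2, Igfbp3, Igfbp4 and Igfbp5 lay from 2.82 to 9.05 log2 units above the limit. Irs2 lay 1.28 units above it. Igf1 and Igfbp7 lay less than 1 unit above it, and Igfbp6 was not above background. The median distance from the limit was 3.21 log2 units over the 10 genes and 1.76 over all genes tested. These values take the brightest probe set of each gene. The 10 genes have 28 probe sets and all 18194 genes 34958, so the 10 have more sets per gene to choose from. With the median of probe sets instead, 6 of the 10 were above background, against 50.6% of all genes tested.

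**Figure D1:**
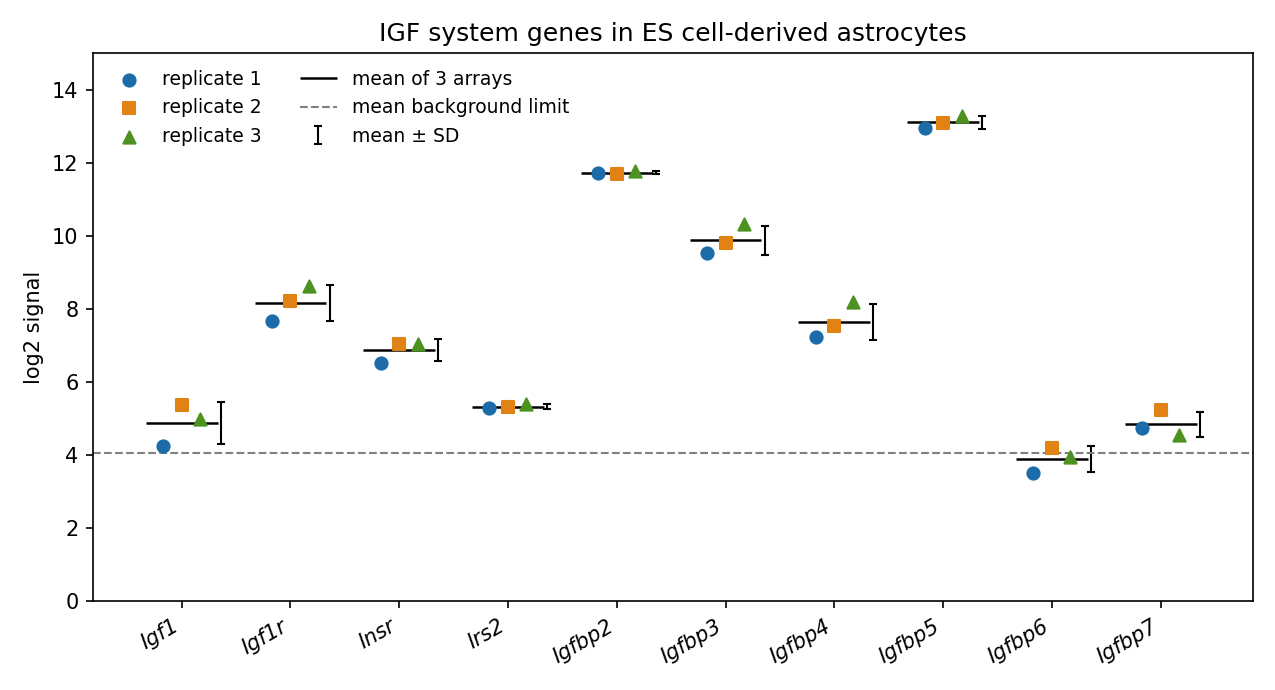
Log2 signal of the 10 IGF system genes on each of the 3 arrays, with the mean as a black line, the SD over arrays as a bar and the mean background limit (4.05) as a dashed line. Igfbp6 straddles the limit, Igf1 and Igfbp7 sit just over it, and the points of Igfbp2 and Igfbp5 lie far above it on every array.

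Igf1 encodes the ligand of the system. Its signal was 4.25 on replicate 1, 5.37 on replicate 2 and 5.00 on replicate 3, for a mean of 4.87 ± 0.57. All 3 arrays were above their limits, replicate 1 by the least. The mean lay 0.82 ± 0.25 (SE) log2 units above the limit (limma, adjusted p = 0.0317). That call was lost without replicate 2 (0.60 units, limma adjusted p = 0.122) and without replicate 3 (0.77 units, limma adjusted p = 0.128). Of its 4 probe sets 1 was above background. The second, at 4.34 ± 0.46, lay 0.28 units above the limit and did not pass (adjusted p = 0.25, limma). The other two had means of 3.57 ± 0.59 and 3.55 ± 1.09, under the limit. With the median of the 4 probe sets as the gene's value, Igf1 lay 0.24 units above the limit and did not pass (limma, adjusted p = 0.204). In a bulk sample such as this, fewer cells with the transcript and less of it per cell cannot be told apart. Microglia also express Igf1. The summed linear signal of the 5 microglia and blood markers was 64.6, 64.0 and 63.3 on replicates 1, 2 and 3, while the linear signal of Igf1 was 19.0, 41.4 and 32.0. Of that sum Csf1r gave 44.1, 35.0 and 43.4. Csf1r was above background, by 1.29 units (limma, adjusted p = 0.00177), and Aif1, Itgam, Cx3cr1 and Ptprc were not. The part of such cells in the Igf1 signal was not tested.

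Igf1r encodes the receptor that binds both IGFs. Its signal was 7.66, 8.21 and 8.63 on replicates 1, 2 and 3, lowest on replicate 1 and highest on replicate 3. The mean of 8.17 ± 0.48 lay 4.11 ± 0.22 (SE) units above the limit (limma, adjusted p = 0.00016). Its 5 probe sets spread over 3.90 log2 units, and 3 of them were above background. The second brightest, at 6.60, 6.89 and 6.61, put replicates 1 and 3 level with each other. The brightest set exceeded it by 1.06, 1.32 and 2.01 units on the 3 arrays, so the order of the arrays depended on the probe set read.

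Insr encodes the insulin receptor, which can also pair with the IGF1 receptor into hybrid receptors. Its signal was 6.53, 7.05 and 7.04 on the 3 arrays, lower on replicate 1 than on the other two. The mean of 6.87 ± 0.30 lay 2.82 ± 0.16 (SE) units above the limit (limma, adjusted p = 0.000171). The call rested on 1 of its 3 probe sets. The remaining ones had means of 3.38 ± 1.12 and 2.09 ± 1.93, both under the limit, and the dimmest ran from 0.38 on replicate 1 to 4.17 on replicate 2. With the median of the 3 probe sets, Insr lay at -0.65 log2 units from the limit.

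Irs2 encodes an adaptor that both receptors phosphorylate. Its single probe set read 5.28, 5.32 and 5.39, all above the limit. The range was 0.11 log2 units as deposited and 0.23 once each array's median deviation was taken off. The mean of 5.33 lay 1.28 ± 0.12 (SE) units above the limit (limma, adjusted p = 0.000834). With a limit taken from genes restricted to other tissues, such as milk protein and sperm protein genes, it lay 0.88 units above and did not pass (limma, adjusted p = 0.0816).

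The binding protein genes split, with 5 of 6 above background, against 58.3% of all genes tested. Igfbp2, whose protein prefers IGF2, is read by 1 probe set. It read 11.72, 11.69 and 11.76 on the 3 arrays, for linear signals of 3381, 3303 and 3468. The deposited values lay within 0.0701 log2 units of each other, and within 0.31 once each array's median deviation was taken off. The mean lay 7.67 ± 0.12 (SE) units above the limit (limma, adjusted p = 3.85e-05).

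Igfbp5 encodes a binding protein that also attaches to extracellular matrix. Its signal was 12.95, 13.07 and 13.28 on replicates 1, 2 and 3, or 7897, 8627 and 9953 on the linear scale. The 3 arrays lay within 0.33 log2 units of each other, or within 0.0690 after the same centring, and the mean of 13.10 ± 0.17 was 9.05 ± 0.13 (SE) units above the limit (limma, adjusted p = 3.85e-05). Its second probe set gave another order of arrays. It read 10.51, 10.61 and 8.31, so replicate 3, highest on the first set, was lowest on the second. The gap between the sets was 2.44, 2.46 and 4.97 log2 units on the 3 arrays. Both sets were above background on every array.

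Igfbp3 encodes the main carrier of IGFs in blood serum. Its signal was 9.53, 9.79 and 10.32, highest on replicate 3. The mean of 9.88 ± 0.40 lay 5.83 ± 0.20 (SE) units above the limit (limma, adjusted p = 5.51e-05). Both of its probe sets were above background and put the arrays in the same order. The second read 9.13, 9.29 and 9.59.

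Igfbp4 encodes a binding protein that inhibits IGF action until a protease cleaves it. Its signal was 7.23, 7.54 and 8.19, again highest on replicate 3. The mean of 7.65 ± 0.49 lay 3.60 ± 0.23 (SE) units above the limit (limma, adjusted p = 0.000256). Of its 6 probe sets 5 were above background. The exception read 4.71, 3.54 and 0.47, falling under the limit on replicates 2 and 3. All 6 are of kinds that can bind several transcripts of a gene or of related genes, as were both sets of Igfbp5 and the set of Igfbp2. These genes therefore have no value without such probe sets.

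Igfbp7 encodes a more distant relative that binds IGFs weakly and insulin as well. Its signal was 4.74, 5.23 and 4.56, highest on replicate 2 and above the limit on all arrays. The mean of 4.84 ± 0.35 lay 0.79 ± 0.18 (SE) units above the limit (limma, adjusted p = 0.0143). The call was lost without replicate 1 (0.81 units, limma adjusted p = 0.0546) and without replicate 2 (0.62 units, limma adjusted p = 0.0796). It rested on 1 of 3 probe sets. The others averaged 2.20 ± 0.47 and 2.002 ± 1.71, and with the median of the 3 sets Igfbp7 lay at -1.06 log2 units from the limit. Vascular cells are a known source of this gene in brain. The summed linear signal of the 5 endothelial markers was 16.3, 31.8 and 48.2 on the 3 arrays, with none above background, and the linear signal of Igfbp7 was 26.8, 37.5 and 23.6. The part of such cells in it was not tested.

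Igfbp6 encodes the binding protein with the strongest preference for IGF2. Its single probe set read 3.52, 4.21 and 3.96, over the limit on replicate 2 and under it on the other two arrays. The mean of 3.90 ± 0.35 was at -0.16 ± 0.17 (SE) units from the limit and did not pass (limma, adjusted p = 1). This close to the limit, low expression and none cannot be told apart.

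**Figure D2:**
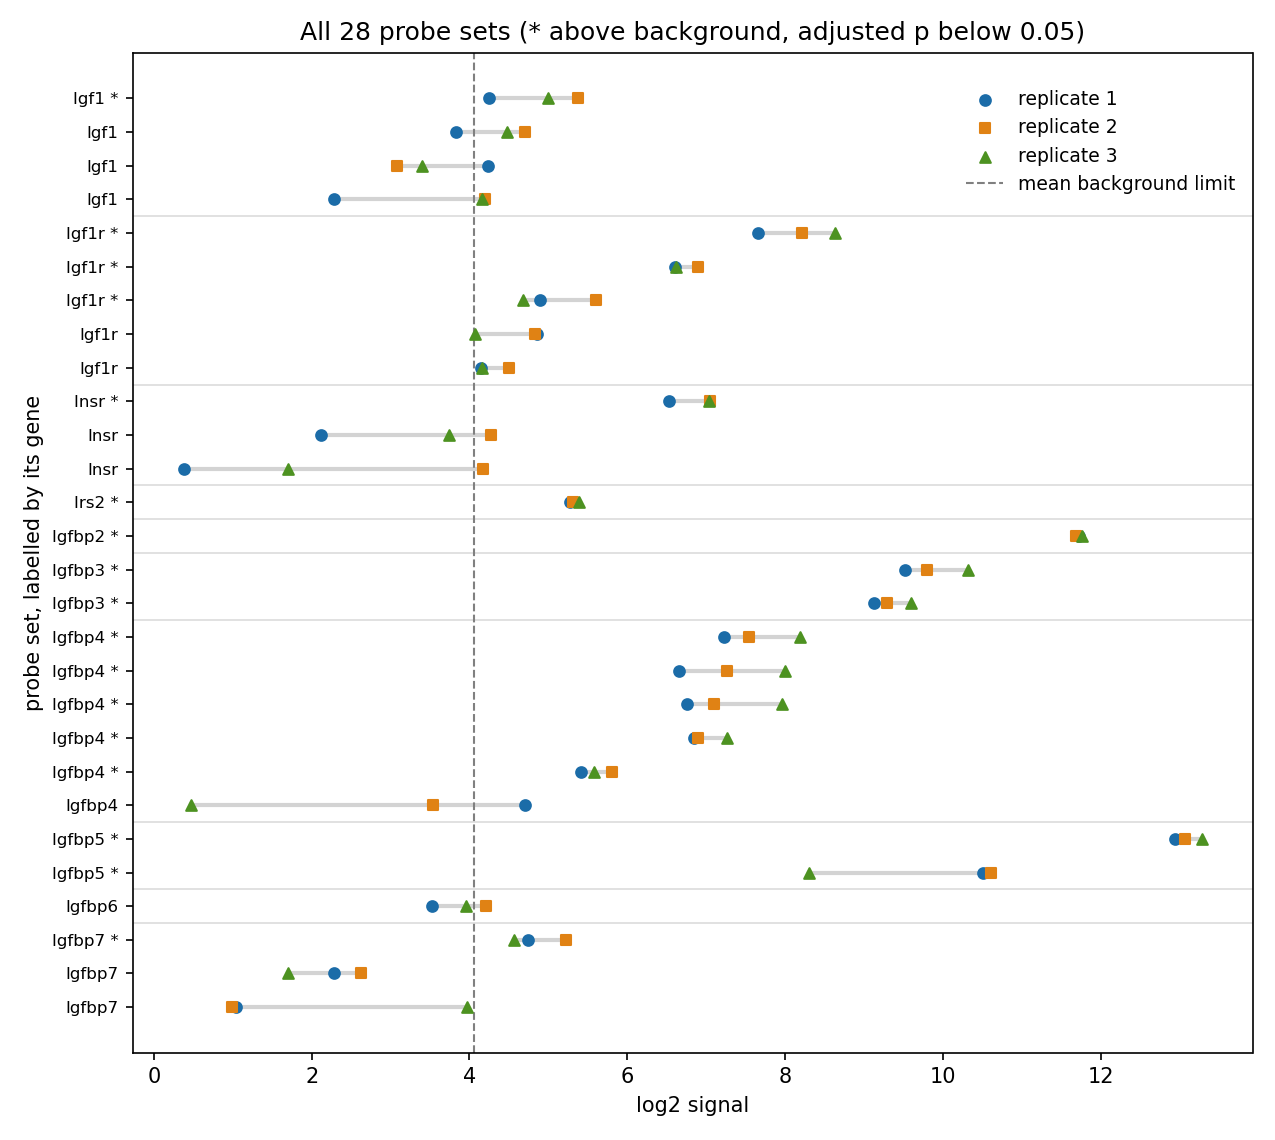
Log2 signal of all 28 probe sets of the 10 genes, 1 row each and 3 arrays per row, ordered by mean within a gene. Grey bars join the lowest and highest array, the dashed line is the mean background limit and asterisks mark the 17 sets above background.

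Counted by probe set, 17 of 28 were above background, against 52.2% of all probe sets tested (limma, adjusted p under 0.05). Every probe set of Irs2, Igfbp2, Igfbp3 and Igfbp5 passed. Igf1, Igf1r, Insr, Igfbp4 and Igfbp7 each had sets on both sides of the threshold, and the brightest and dimmest sets of 1 gene differed by up to 4.79 log2 units, in Insr.

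The binding protein genes include 2 pairs of chromosomal neighbours in RefSeq's gene table for assembly GRCm38.p6, with no protein-coding gene between the members of a pair. Igfbp2 and Igfbp5 form the first pair, and both were above background. Igfbp3 and Igfbp1 form the second, and their calls differed. Igfbp1, whose protein is made chiefly in liver, read 0.70, -0.70 and -0.49, under the limit on all arrays, while Igfbp3 was over it on all arrays. The 250 bases before the RefSeq start of each gene are printed to show these neighbours side by side, 5′ to 3′ on the gene's strand, with CG dinucleotides in capitals. RefSeq windows of GRCm38.p6 were found for 9 of the 10 genes. Igfbp2 has a second start in that table, which is not printed. The windows lie at chr1:72824230-72824479, plus strand (Igfbp2), chr1:72874866-72875115, minus strand (Igfbp5), chr11:7213924-7214173, minus strand (Igfbp3) and chr11:7197537-7197786, plus strand (Igfbp1).
Igfbp2: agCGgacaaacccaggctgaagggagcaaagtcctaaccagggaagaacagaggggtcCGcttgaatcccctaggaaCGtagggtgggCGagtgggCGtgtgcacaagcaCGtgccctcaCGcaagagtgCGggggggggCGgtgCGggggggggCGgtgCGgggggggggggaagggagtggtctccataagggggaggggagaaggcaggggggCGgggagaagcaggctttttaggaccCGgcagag
Igfbp5: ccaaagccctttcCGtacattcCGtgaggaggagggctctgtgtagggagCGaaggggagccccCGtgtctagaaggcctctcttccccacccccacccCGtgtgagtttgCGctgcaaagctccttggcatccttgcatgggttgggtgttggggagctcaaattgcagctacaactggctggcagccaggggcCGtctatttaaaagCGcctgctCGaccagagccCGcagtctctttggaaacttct
Igfbp3: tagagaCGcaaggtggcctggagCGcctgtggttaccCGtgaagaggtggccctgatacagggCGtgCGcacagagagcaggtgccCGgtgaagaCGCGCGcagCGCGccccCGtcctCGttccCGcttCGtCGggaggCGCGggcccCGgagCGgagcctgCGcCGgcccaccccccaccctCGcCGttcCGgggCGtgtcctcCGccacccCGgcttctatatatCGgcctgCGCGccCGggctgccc
Igfbp1: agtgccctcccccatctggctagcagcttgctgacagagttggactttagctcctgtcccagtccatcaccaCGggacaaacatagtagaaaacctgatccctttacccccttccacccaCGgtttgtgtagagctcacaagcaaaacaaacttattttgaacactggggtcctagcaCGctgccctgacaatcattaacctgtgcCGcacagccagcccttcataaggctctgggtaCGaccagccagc

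The Igfbp3 window holds 32 CG dinucleotides and the Igfbp1 window 5, against a median of 6 over 32851 windows of this length. The printed Igfbp2 window holds 14, the window of its second start 11 and the Igfbp5 window 10. The window of Igfbp7, above background but near the limit, holds 26. That of Igf1, likewise above background and near the limit, holds 5, and that of Igfbp6, not above background, holds 7. A link between CG content and the calls was not tested. The motif GGGCGG, searched on both strands, occurs 3 times in the printed Igfbp2 window and 0 times in that of its second start. The motif occurs 4 times in the window of Igfbp7, 2 times in that of Igf1r and 1 time in that of Irs2. It is present in 32.7% of all windows. The motif TATAAA, on either strand, was found in the windows of Igfbp4 and Igfbp6 and in 12.4% of all windows. These matches describe the letters only.

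As deposited, 8 of 10 genes were lowest on replicate 1 and 6 of 10 were highest on replicate 3. The same counts were not made over all genes. The median deviation of the 10 genes from their own means was -0.35, 0.0163 and 0.15 log2 units on replicates 1, 2 and 3. The same median over all genes above background was -0.18, 0.0165 and 0.16. Less that shift, the median of the 10 genes was still -0.17 on replicate 1. On replicate 1 it was -0.29 with arrays shifted to a common median and -0.20 after quantile normalization. On replicate 3 it was 0.25 with a common median and 0.0631 with the median of probe sets. With each array's median taken off, 6 genes were lowest on replicate 1 and 3 were highest on it. On replicate 3, 3 were highest and 3 lowest, and 4 were highest on replicate 2. The values then were -0.44 for Igf1 and -0.33 for Igf1r on replicate 1, and 0.38 for Igfbp4, 0.30 for Igf1r and 0.27 for Igfbp3 on replicate 3. On replicate 1 Igfbp2, Irs2, Igfbp7 and Igfbp5 ran the other way, at 0.18, 0.13, 0.08 and 0.03. Igfbp7 ran the other way on replicate 3, at -0.45, as by less did Igfbp2, Igfbp6, Irs2, Igf1 and Insr. With 1 array per replicate these differences have no test.

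**Figure D3:**
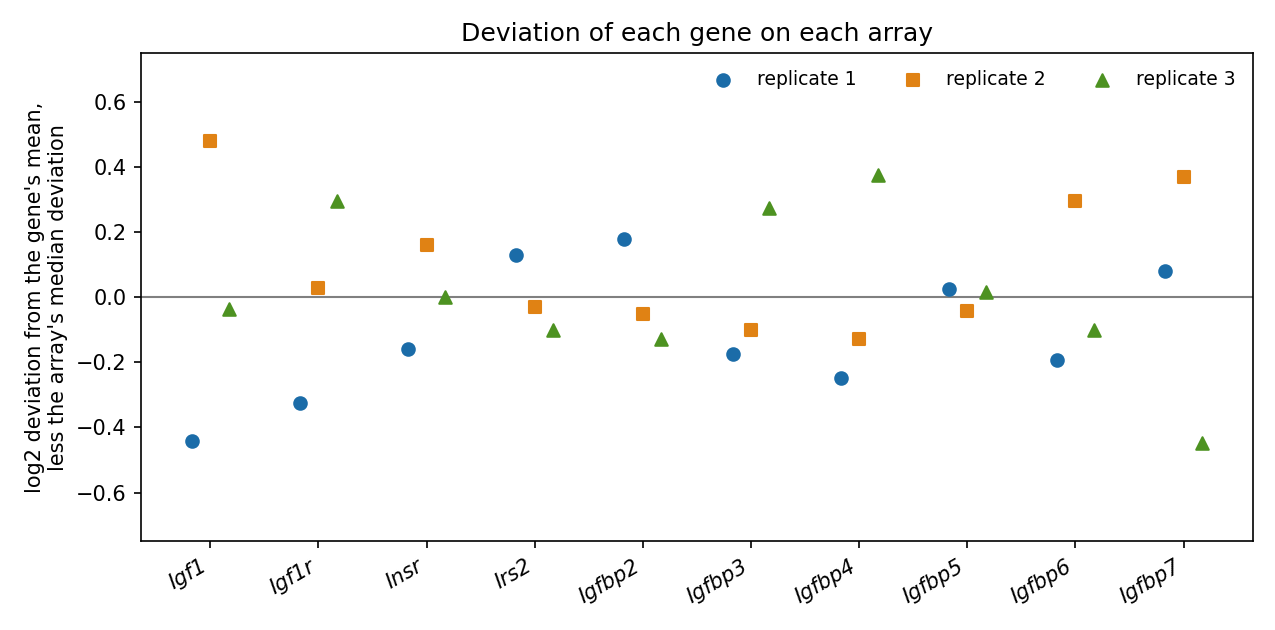
Deviation of each gene on each array from the gene's mean over 3 arrays, in log2 units, less the array's own median shift. Igf1, Igf1r, Igfbp4 and Igfbp7 spread most, and the 3 points of Igfbp5 lie closest together.

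How wide a gene's spread was for its level depended in part on the shift between arrays. The SD of deposited values of Igf1 exceeded that of 94.2% of 929 genes above background within 0.5 log2 units of it, and 86.0% once each array's median deviation was taken off. For Igf1r, Igfbp3 and Igfbp4 the shares were 92.0%, 92.0% and 91.0% as deposited and 83.3%, 78.4% and 84.9% after centring. Igfbp7 moved from 63.4% to 80.7% and Insr from 57.5% to 39.6%. Igfbp5 and Igfbp2 turned round: Igfbp5 went from 90.5% to 3.17% of 63 genes of like level, and Igfbp2 from 7.27% to 63.1% of 344. The shares of Igfbp5 cover its brightest probe set alone, and its second set had an SD of 1.30 as deposited. Irs2 was low on both scales, at 2.82% and 13.2%. The centred values were added after the data were seen. The median SD over all genes above background was 0.24 as deposited and 0.18 after centring.

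The rest of the pathway was read from a fixed list of 65 other genes, of which 54 were measured and 11 are not analysed here. Of the 54, 46 (85.2%) were above background and 8 were not, against 58.3% of all genes tested. Their median distance from the limit was 3.85 log2 units, against 1.76 over all genes tested. By role, the genes not above background fell among secreted or membrane proteins, 1 adaptor and 1 RNA-binding protein. With the median of probe sets in place of the brightest, 36 of the 54 were above background, against 50.6% of all genes tested. Igf2, the second IGF ligand, read 5.13, 5.69 and 4.37, lowest on replicate 3, for a mean of 5.06 ± 0.67 (limma, adjusted p = 0.0315). It did not pass without replicate 1 (0.95 units, limma adjusted p = 0.104) or without replicate 2 (0.72 units, limma adjusted p = 0.101), and lay at -0.64 units with the median of its probe sets. Ins2, an insulin gene of pancreatic islets, was at 3.002 ± 0.71 and did not pass.

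Among receptors, Igf2r, which clears IGF2 by carrying it to lysosomes, was at 5.79 ± 0.26, 1.74 units above the limit (limma, adjusted p = 0.000639). Insrr, an orphan relative of the insulin receptor, was at 2.82 ± 0.74 and did not pass. Among further binding proteins, Igfbpl1, a distant relative of the family, read 8.93, 9.10 and 8.41, above the limit on every array and lowest on replicate 3. Its mean of 8.81 ± 0.36 was 4.76 units above the limit (limma, adjusted p = 8.15e-05). Igfals, which completes the serum complex with IGFBP3, was at 1.19 ± 1.81 and did not pass.

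Of the adaptors 7 of 8 were above background, against 58.3% of all genes tested. Irs1, the close relative of Irs2, read 10.31, 10.58 and 10.47, all far above the limit, with a mean 6.40 ± 0.12 (SE) units over it (limma, adjusted p = 3.85e-05). Gab1, a docking protein, was at 10.94 ± 0.30, and Shc1 and Grb2, which link receptors to Ras, were at 7.09 ± 0.14 and 8.39 ± 0.30. Sh2b1 was at 7.80 ± 0.51, and Irs4 at 4.79 ± 0.42. Irs4 did not pass without replicate 2 (0.57 units, limma adjusted p = 0.11) or without replicate 3 (0.70 units, limma adjusted p = 0.0909), nor with the median of its probe sets (0.24 units, limma adjusted p = 0.325). The inhibitory adaptors differed, with Grb14 at 6.57 ± 0.38, above background, and the imprinted Grb10 at 3.14 ± 0.0486, which did not pass and lay under the limit on all arrays. With probe sets taken at their median, Sh2b1 was at -0.19 units and Grb14, at 0.0260, did not pass (limma, adjusted p = 0.819).

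All measured genes of the intracellular branches were above background. These were 11 of 11 in the PI3K-AKT branch, 9 of 9 around mTOR, 4 of 4 in the Ras-MAPK branch and 3 of 3 FOXO factors, against 58.3% of all genes tested. With probe sets taken at their median, Rptor was at -0.29 and Sos1 at -0.39 log2 units from the limit, and Rictor, at 0.0614, did not pass (limma, adjusted p = 0.696). The PI3K subunit genes Pik3ca, Pik3cb, Pik3r1 and Pik3r2 were at 8.88 ± 0.11, 6.93 ± 0.40, 8.68 ± 0.12 and 8.001 ± 0.49. Mtor, the growth-controlling kinase, and its partners Rptor, Rictor and Mlst8 were at 8.37 ± 0.37, 7.43 ± 0.50, 6.65 ± 0.35 and 6.48 ± 0.23. Sos1, Nras, Map2k1 and Map2k2 of the Ras-MAPK branch were at 8.75 ± 0.20, 9.39 ± 0.18, 10.34 ± 0.0735 and 8.79 ± 0.30. The transcription factor genes Foxo1, Foxo3 and Foxo4, whose proteins AKT keeps out of the nucleus, were at 8.81 ± 0.46, 9.42 ± 0.55 and 7.65 ± 0.46.

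The genes that free IGFs from binding proteins were split. Pappa and Pappa2, for proteases that cleave IGF binding proteins, were at 1.89 ± 1.78 and 2.25 ± 0.63 and did not pass. Pappa ranged from -0.0994 on replicate 1 to 3.35 on replicate 2, under the limit on all arrays. The genes for their inhibitors Stc1 and Stc2 were at 6.28 ± 0.26 and 5.39 ± 0.24, and both were above background (limma, adjusted p = 0.000372 and 0.00137). Htra1 and Ctsd, for further proteases that can cut IGF binding proteins, were at 7.55 ± 0.18 and 11.44 ± 0.19 and were above background.

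Of the genes that limit the signal, 4 of 4 were above background, against 58.3% of all genes tested. Ide, for the insulin-degrading enzyme, was at 9.14 ± 0.39 and the phosphatase gene Ptpn1 at 9.44 ± 0.15. The cytokine signalling suppressors Socs2 and Socs3 were at 6.66 ± 0.31 and 7.56 ± 0.48. Of the genes for proteins that bind Igf2 mRNA, Igf2bp3 was at 6.20 ± 0.11 and above background (limma, adjusted p = 0.000211). Igf2bp1 read 2.47, 4.19 and 2.68, over the limit on replicate 2 only, and did not pass. With probe sets taken at their median, Socs2 and Igf2bp3 were at -0.44 and -0.14 units from the limit.

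**Figure D4:**
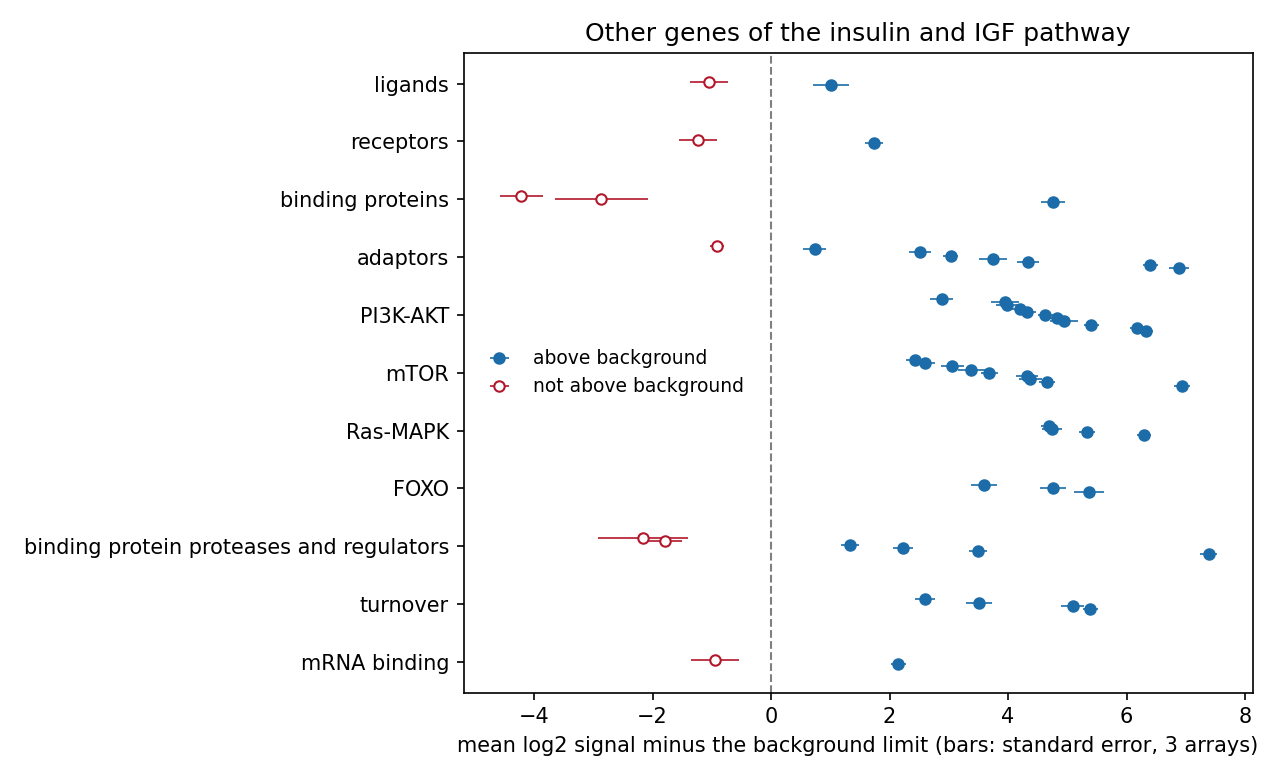
Distance of the mean log2 signal from the background limit for the 54 other measured genes of the insulin and IGF pathway, grouped by role, with limma's moderated standard errors. Filled points are the 46 genes above background and open points the 8 that were not, and every point of the 4 intracellular branches is filled.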

How the data were processed

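The authors deposited intensities on a linear scale, 1 for each array and probe set, from 0.0563 to 12521 over 45101 probe sets. GCOS 1.4 was used, per the submitters' processing notes. The sources used here do not give its settings, scaling target, detection calls or a genome build. Trimmed means differed between arrays (131, 149 and 154 after 2% was cut at each end), and no scaling was added.

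Log2 was taken with no pseudocount. The 34958 probe sets with 1 gene in the platform annotation were used, and those with several (932) or none (9211) were left out. Each gene's distance from the array's background limit was fitted with limma 3.58.1 in R 4.3.3 (eBayes, one-sided, Benjamini-Hochberg), and likewise each probe set's, against the same limits. The procedure was tested on simulated data. The 13 alternatives changed scaling, limit, pseudocount, filter, prior, probe set rule or replicates.

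The members, lists and tests were chosen with earlier results of these data known. Named genes were the 10 members, all measured pathway genes of the smaller role groups, and the first 4 in list order of PI3K-AKT, mTOR, Ras-MAPK and FOXO. No genes of like pattern are named, as 3 replicates of 1 group hold no pattern across conditions. Some genes of the lists are not analysed here.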

Additional observations from a re-analysis of the deposited data

How the results depend on the processing

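Over the 13 alternatives 6 to 9 of the 10 genes, and 36 to 46 of the 54 other pathway genes, were above background. Over all genes tested the share ran from 50.6% with the median of probe sets to 95.2% where means under the limit were dropped. At the first of these 6 of 10 and 36 of 54 were called, and at the second 9 of 9 and 46 of 46. Fewer were tested in 2 of the alternatives: 7 and 49 without sets able to bind more than 1 transcript, and 9 and 46 where means under the limit were dropped. The probe sets above background numbered 13 to 19 over the alternatives that apply to them, of 28 tested, or 18 of 20 where means under the limit were dropped. The share over all probe sets was taken in the main fit alone, at 52.2%. These counts therefore have no share of their own to be read against. The call of Igf1r, Igfbp2, Igfbp3, Igfbp4 and Igfbp5 held under every alternative that gave them a value, with leave-one-out fits included. Igf1, Igfbp7, Igf2 and Irs4 lost their calls with the limit at the 99th percentile, with the limit from other-tissue genes and without some replicates. Without replicates 1, 2 and 3, 8, 7 and 8 of the 10 genes were called. The shares over all genes tested were then 57.4%, 56.5% and 57.7%. Irs2 and Stc2 lost theirs with the limit from other-tissue genes, and Igf1, Irs4, Grb14 and Rictor with the median of probe sets. With the median of probe sets Insr was at -0.65, Igfbp7 at -1.06, Igf2 at -0.64, Sh2b1 at -0.19, Socs2 at -0.44, Igf2bp3 at -0.14, Rptor at -0.29 and Sos1 at -0.39 log2 units from the limit. Sh2b1 was at -4.18 when sets able to bind more than 1 transcript were left out. Igfbp6 was at 0.0990 with the limit at the 90th percentile and still did not pass (limma, adjusted p = 0.466). With arrays shifted to a common median, the median deviation of the 10 genes on replicate 2 was -0.14 in place of 0.0163. The causes were not tested. With no detection calls or probe-level values, low expression near the limit can go unseen. No paired analysis was possible because the design holds 1 group.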
